A study of Mus musculus with 6 samples.

Results

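Kinesins are the motor proteins that use ATP to move along microtubules, most of them towards the plus end. The mitotic kinesins build the spindle, move chromosomes and assemble the midzone at which a dividing cell is cut, and their transcripts are known to peak in late G2 and mitosis. The cargo kinesins carry vesicles, mitochondria and ciliary components in cells of every cell cycle phase. The kinesin family was examined here in MC38, a mouse colorectal cancer cell line. Members were the rows of the deposited expression table whose target ID, the gene label of the array, was a kinesin (KIF) gene symbol, which gave 38 of the 30828 rows. By known role, 12 of the rows were grouped as mitotic, 17 as cargo and 9 as other kinesins.

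Gene expression was measured with Illumina mouse whole-genome bead arrays on total RNA of cells kept for 24 h in medium with 50 µM of the omega-3 fatty acid eicosapentaenoic acid (EPA), given as the free fatty acid, and of control cells. Both groups were grown in RPMI with foetal calf serum, and each had 3 samples, with 1 array per sample. For the control cells no vehicle or time is labelled, and an effect of either cannot be told apart from one of EPA. Nothing in the labels ties the samples to separate cultures, so the p-values cover only the spread among the 3 samples of a group, possibly a technical one. In bulk RNA, a change in the share of cells in mitosis and a change in RNA per cell cannot be told apart.

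Values are linear intensities that the authors had quantile-normalised, with a median near 35.2 on every array. A row was tested where the 3 arrays of EPA, or the 3 of control, all exceeded a background limit of 39.5, and 11797 rows (38.3%) met this. EPA and control were compared with limma, and a row was called at a Benjamini-Hochberg adjusted p below 0.05 over these 11797 rows. Across them 3859 rows (32.7%) were called, 1911 higher (16.2%) and 1948 lower (16.5%) with EPA, with a median log2 fold change of -0.00020. Of 8 epithelial and intestinal markers only Krt8 met the filter. Epcam, Krt19 and Vil1 were below the limit on all 6 arrays, while Cdh1, Krt18, Cdx2 and Lgr5 exceeded it on 1 or 2 control arrays. Of 8 immune markers 2 were tested (Cd14 and Cd68) and neither was called, and of 3 endothelial markers none was tested. Of 4 fibroblast markers 3 were tested, and Dcn (log2 fold change 1.07) and Pdgfrb (0.61) were called higher. The summed intensity of the 4 was 689 to 714 with EPA and 364 to 390 in control cells. Most of this sum was Dcn, with means of 551 and 263. Col1a1 was not called and Lum was not tested. The part of these genes in the kinesin results was not tested.

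Of the 38 kinesin rows 19 were tested, and 4 of these (21.1%) were called, against 32.7% of all rows. Kif4 and Kif23, motors of the spindle midzone, and Kif3c, a kinesin-2 cargo motor, were higher with EPA, and Kif18a, which restrains chromosome movement at the metaphase plate, was lower. The remaining 15 did not pass. The called changes were small, between a log2 fold change of -0.28 and 0.42, and the median absolute log2 fold change of all called rows in the table was 0.40. All 3 EPA arrays lay above the 3 control arrays for 7 of the 19 rows, against 22.9% of all tested rows. They lay below them for 1, against 23.8%. In either direction 8 of 19 rows were without overlap, against 46.7% of all tested rows. At an unadjusted limma p below 0.05 there were 6 of 19 rows, against 43.7% of all tested rows. Counted in either direction, these shares lie below those of the whole table, so the number of changed kinesins is not a result about the family. The direction of the separation was not tested.

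The promoters of the called genes, with that of Kifc1 for contrast, are shown because 8 of the 9 tested mitotic kinesins held a promoter motif that the choice of rows did not use. Sequences are from RefSeq, build GRCm38.p6, read 5′ to 3′ on the gene's own strand from 170 bases before to 30 after the annotated start. Capitals mark matches on either strand to the cell cycle genes homology region (CHR, searched as TTTGAA and TTCGAA), an element known from promoters of late cell cycle genes, and to the CCAAT box.
Kif4 (chrX:100625895-100626094, plus strand): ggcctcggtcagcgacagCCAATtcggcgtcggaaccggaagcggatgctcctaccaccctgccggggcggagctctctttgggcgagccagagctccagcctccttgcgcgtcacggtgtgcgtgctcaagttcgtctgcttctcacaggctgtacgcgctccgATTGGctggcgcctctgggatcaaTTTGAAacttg
Kif23 (chr9:61946770-61946969, minus strand): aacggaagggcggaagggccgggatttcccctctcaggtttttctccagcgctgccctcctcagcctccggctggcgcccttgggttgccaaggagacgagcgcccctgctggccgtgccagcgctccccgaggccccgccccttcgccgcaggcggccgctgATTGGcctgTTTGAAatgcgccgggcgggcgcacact
Kifc1 (chr17:33890604-33890803, minus strand): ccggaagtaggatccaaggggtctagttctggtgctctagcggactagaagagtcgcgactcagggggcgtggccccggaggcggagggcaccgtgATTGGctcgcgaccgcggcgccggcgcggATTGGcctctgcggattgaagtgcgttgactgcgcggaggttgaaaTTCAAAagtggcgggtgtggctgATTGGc
Kif18a (chr2:109280568-109280767, plus strand): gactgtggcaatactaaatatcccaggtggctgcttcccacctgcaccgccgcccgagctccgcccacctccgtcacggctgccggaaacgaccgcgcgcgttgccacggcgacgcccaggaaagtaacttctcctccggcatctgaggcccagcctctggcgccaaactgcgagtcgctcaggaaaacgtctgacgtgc
Kif3c (chr12:3364962-3365161, plus strand): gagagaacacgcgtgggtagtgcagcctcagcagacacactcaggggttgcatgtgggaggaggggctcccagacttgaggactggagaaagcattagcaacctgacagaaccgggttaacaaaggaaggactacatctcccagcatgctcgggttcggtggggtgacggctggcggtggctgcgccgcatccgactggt

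In the full window of 250 bases before to 50 after the start, a CHR match was present in 8 of the 9 tested mitotic kinesins, in 0 of 7 tested cargo kinesins with a sequence and in 1 of 2 others (Kif26b). Among the promoters of all genes in RefSeq, a CHR match occurred in 21.7%, a CCAAT match in 41.1% and both in 9.65%. Both motifs were present in 5 of the 9 mitotic kinesins (Kif4, Kif11, Kif22, Kif23 and Kifc1) and in no cargo kinesin, while 3 of the cargo kinesins had a CCAAT match alone (Kif1b, Kif3a and Kif3b). The CHR match began at base 20 in Kif4, base 3 in Kif23 and base 2 in Kifc1, counted from the annotated start, and at base -19 in Kif11. Kif18a was the mitotic kinesin without a match to either motif. A match is a string of letters and not a bound site. Of the 8 mitotic rows with a CHR match, Kif4 and Kif23 were called higher and 6 were not called, of which Kif15 and Kifc1 had negative log2 fold changes. A relation between the motif and the direction of change was not tested.

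**Figure D1:**
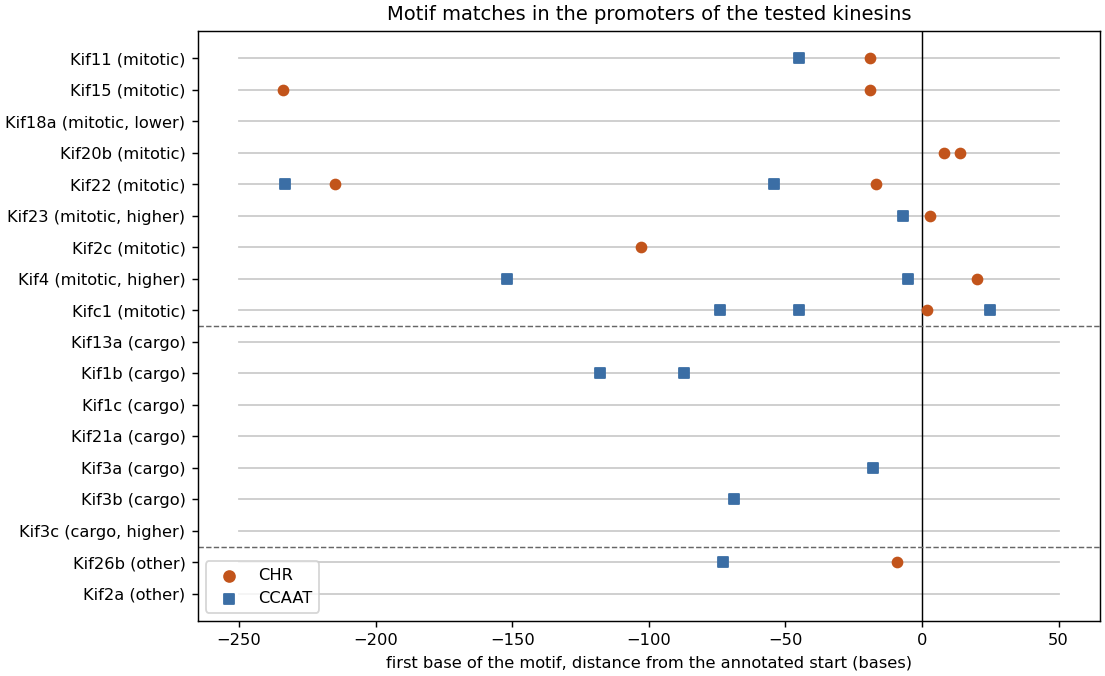
Positions of CHR (circles) and CCAAT (squares) matches in the promoters of the 18 tested kinesins with a sequence, as the distance of the first base of each match from the annotated start, with genes grouped as mitotic, cargo and other and marked where the expression row was called. CHR matches lie in 8 of 9 mitotic and 0 of 7 cargo promoters, mostly close to the start.

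Among the mitotic kinesins, 9 of 12 rows were tested, 2 were called higher, 1 lower and 6 not. The share called was 33.3%, near the 32.7% of all rows. The median log2 fold change was 0.21. Taken array by array against the control means, this median was 0.051, 0.17 and 0.22 on the EPA arrays (SD 0.087, n = 3) and -0.016, 0.033 and -0.022 on the control arrays (SD 0.030, n = 3). Of the 9 rows 6 had a positive and 3 a negative log2 fold change. The class median of the first EPA array thus lay closer to the controls than those of the other EPA arrays. Single rows differed. Among the EPA arrays, KIF11 and KIF23 were highest on the first, and KIF22 and KIF2C lowest.

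Kif4, the mouse counterpart of the human chromokinesin KIF4A, which works with Prc1 to set the length of the central spindle, was the one of the 4 called kinesin rows whose call held in every alternative. Its intensity was 216, 223 and 221 on the EPA arrays, against 167, 163 and 162 on the control arrays. The groups did not overlap and each spread by only a few units, with means of 220 ± 3.79 for EPA and 164 ± 3.01 for control (SD, n = 3 each). The row was 1.34-fold higher with EPA (log2 0.42, SE 0.0687), at an adjusted p of 0.00155 in limma. Over the 13 alternatives it had a log2 fold change of 0.41 to 0.50 and a limma adjusted p of 0.000527 to 0.0464.

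Kif23, also called MKLP1, is the motor subunit of centralspindlin, the complex that bundles midzone microtubules before cytokinesis. Its KIF23 row read 791, 675 and 697 on the EPA arrays, against 568, 632 and 561 on the control arrays, so the groups did not overlap although the lowest EPA array lay near the highest control array. The row rose 1.23-fold (log2 0.29, SE 0.0885, limma adjusted p = 0.0296). The call was lost when EPA replicate 1 (limma adjusted p = 0.0771), EPA replicate 3 (0.0559), control replicate 1 (0.0908) or control replicate 3 (0.0915) was left out, and with the background level subtracted (0.0591).

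Another row of the table, KNSL5, carries an older name of Kif23 and falls outside the choice of members. It read 2562, 2666 and 2550 on the EPA arrays, against 1150, 1200 and 1173 on the control arrays, far apart and with little spread. It rose 2.21-fold (log2 1.14, SE 0.0696, limma adjusted p = 2.01e-05), a size that 0.314% of all tested rows reached or passed. The KNSL5 row has 1 probe and the KIF23 row 3. The ratio of KNSL5 to KIF23 intensity was 3.24, 3.95 and 3.66 on the EPA arrays, against 2.03, 1.90 and 2.09 on the control arrays. On the log2 scale these ratios differed by 0.85 between the groups (1.85 ± 0.144 for EPA and 1.00 ± 0.0709 for control, SD, n = 3 each), with a two-sided exact permutation p of 0.1, the smallest that 3 against 3 arrays allow. Both rows were higher with EPA, and the size of the Kif23 rise differed between them; the probe sequences were not analysed here, so its size is not settled.

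Kif18a, a plus-end motor that dampens chromosome oscillation at metaphase, was the kinesin row that fell. It read 57.9, 49.3 and 54.6 on the EPA arrays, against 67.2, 67.7 and 61.3 on the control arrays. The groups did not overlap, but all values lay close to the background limit of 39.5. The row was 1.21-fold lower with EPA (log2 -0.28, SE 0.0859), at an adjusted p of 0.0320 in limma. Subtracting the background level gave a log2 fold change of -0.54. The call was lost without EPA replicate 2 (limma adjusted p = 0.108), EPA replicate 3 (0.0701), control replicate 1 (0.0955) or control replicate 2 (0.0918), and with a trended, robust variance (0.0524). Without the filter on dim rows, the limma adjusted p was 0.226 for KIF18A, 0.217 for KIF23 and 0.217 for KIF3C, so none of the 3 was called.

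**Figure D2:**
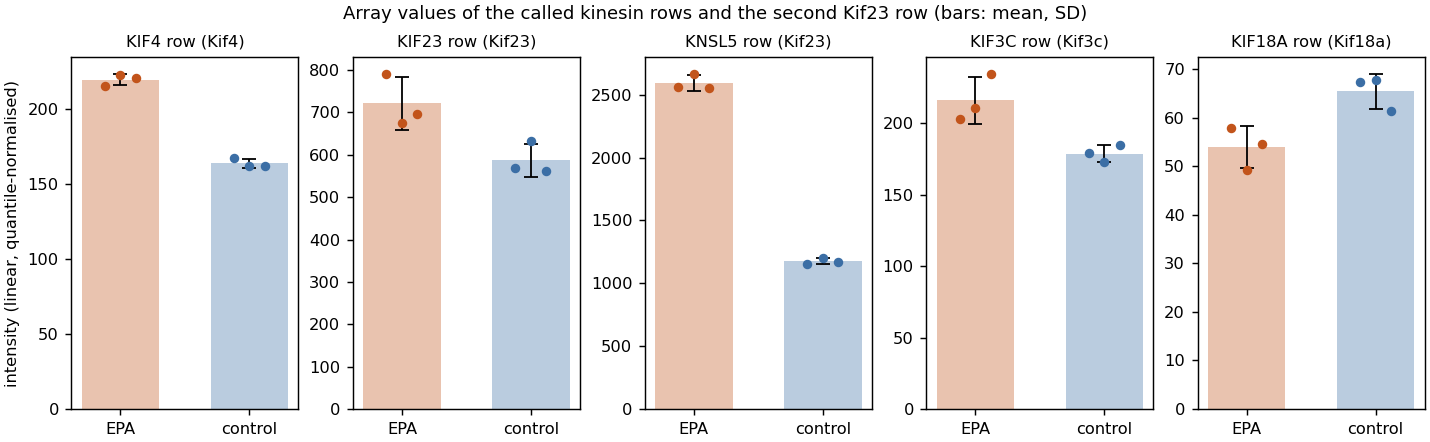
Intensity of the 4 called kinesin rows and of KNSL5, the other row of Kif23, with EPA on the left and control on the right of each panel; dots are the 3 arrays of a group, bars the mean and error bars the SD. The KNSL5 values are 2550 to 2666 with EPA and 1150 to 1200 in control cells, while the KIF23, KIF4, KIF3C and KIF18A rows differ by far less.

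The other 6 mitotic motors did not pass. Kif22, a chromokinesin that pushes chromosome arms away from the poles, read 702, 870 and 864 on the EPA arrays, against 670, 639 and 727 on the control arrays. Its first EPA array lay inside the control range and the other EPA arrays above it, and the log2 fold change was 0.25 (SE 0.100, limma adjusted p = 0.0798). Without EPA replicate 1 it was called (log2 0.36, limma adjusted p = 0.0145). Kif2c, the MCAK enzyme that takes apart microtubule ends at centromeres, had the same pattern, with 473, 582 and 580 on the EPA arrays, against 511, 439 and 454 on the control arrays (log2 0.22, limma adjusted p = 0.134). It too was called without EPA replicate 1 (log2 0.31, limma adjusted p = 0.0302). With all 6 arrays kept, Kif22 was also called with a trended, robust variance (limma adjusted p = 0.0482) and with array weights (limma adjusted p = 0.0260).

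Kif11, known as Eg5, which pushes spindle poles apart and is the target of antimitotic inhibitors, read 265, 228 and 215 on the EPA arrays, against 187, 206 and 215 on the control arrays. The groups touched at 215, and the log2 fold change was 0.21 (95% confidence interval -0.0050 to 0.43). Kif20b, a motor needed late in cytokinesis, read 204, 195 and 207 on the EPA arrays, against 191, 182 and 162 on the control arrays. These groups did not overlap, yet the row did not pass (log2 0.18, limma adjusted p = 0.119). Kif15, which helps Kif11 to keep the spindle bipolar, read 59.3, 74.8 and 81.8 on the EPA arrays, against 77.4, 80.4 and 77.1 on the control arrays. Its log2 fold change of -0.13 rested on the first EPA array, and without that array it was 0.00011. Kifc1, a minus-end motor that focuses spindle poles and clusters extra centrosomes, read 137, 126 and 123 on the EPA arrays, against 131, 153 and 158 on the control arrays (log2 -0.19, 95% confidence interval -0.39 to 0.015). Mouse Kifc1 has a close copy, Kifc5b, which the array may not tell apart from it.

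**Figure D3:**
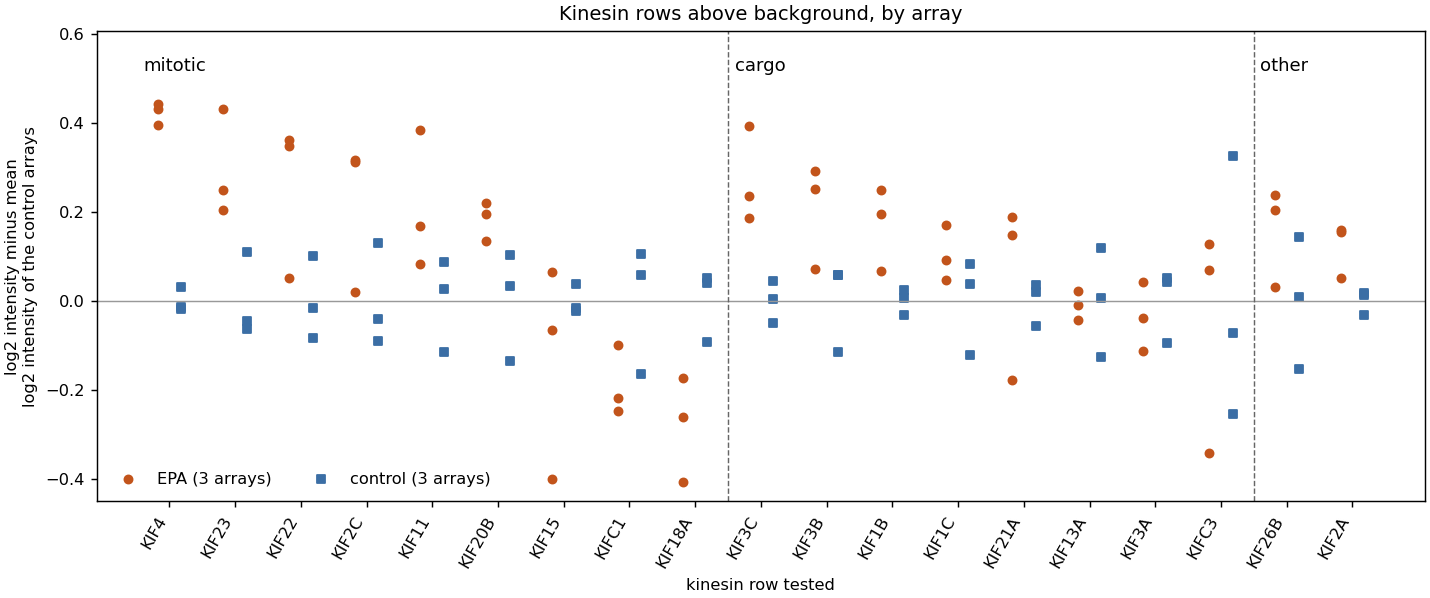
Log2 intensity of the 19 tested kinesin rows on each array, minus the mean of the 3 control arrays of that row, with EPA arrays as circles on the left and control arrays as squares on the right of each row name. KIF4 shows the EPA arrays grouped tightly above the controls, KIF18A shows them below, and in KIF22 and KIF2C 1 EPA array lies among the controls.

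Of the 17 cargo rows 8 were tested, 1 was called higher, 0 lower and 7 not (12.5% called, against 32.7% of all rows). Their median log2 fold change was 0.078. The class median was 0.16, 0.10 and 0.055 on the EPA arrays (SD 0.053, n = 3), and 0.023, 0.0094 and 0.0075 on the control arrays (SD 0.0083, n = 3). The ranges of the mitotic and cargo medians over the EPA arrays overlapped, and the difference between the classes was not tested.

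Kif3c, a kinesin-2 motor subunit best known from neurons, was the called member. It read 203, 211 and 235 on the EPA arrays, against 179, 173 and 185 on the control arrays, without overlap. The row was 1.21-fold higher with EPA (log2 0.27, SE 0.0805), at an adjusted p of 0.0282 in limma. Without EPA replicate 2 (limma adjusted p = 0.0535), EPA replicate 3 (0.103) or control replicate 1 (0.0706), 2 (0.0829) or 3 (0.0503) it was not called.

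Kif3c can pair with Kif3a, and Kif3a and Kif3b with the adaptor Kifap3 form the heterotrimeric kinesin-2 that builds cilia. Kif3a read 418, 397 and 442 on the EPA arrays, against 442, 445 and 402 on the control arrays, with full overlap (log2 -0.037, 95% confidence interval -0.21 to 0.14). Kif3b read 76.1, 67.1 and 78.2 on the EPA arrays, against 66.4, 66.5 and 58.9 on the control arrays, just without overlap, and did not pass (log2 0.21, limma adjusted p = 0.104). The adaptor Kifap3 read 150, 135 and 129 on the EPA arrays, against 102, 107 and 91.8 on the control arrays. It rose 1.37-fold (log2 0.46, SE 0.0897, limma adjusted p = 0.00409). Of the 4 genes of these complexes, Kif3c and Kifap3 were called; differences in change between them were not tested.

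Kif1b, which carries mitochondria and synaptic vesicle precursors, read 113, 109 and 99.8 on the EPA arrays, against 96.9, 93.1 and 95.7 on the control arrays. The groups did not overlap, and the row did not pass (log2 0.17, limma adjusted p = 0.118). The vesicle motor Kif1c had a log2 fold change of 0.10 (limma adjusted p = 0.365) and Kif21a, which slows microtubule growth at the cell cortex, 0.052 (limma adjusted p = 0.729). The endosomal motor Kif13a had -0.0096 (95% confidence interval -0.19 to 0.18). Kifc3, a minus-end motor linked to adherens junctions, had -0.048, with a wide 95% confidence interval of -0.41 to 0.31.

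Of the other kinesins 2 of 9 were tested and neither was called. Kif2a, a microtubule depolymerase of dividing and resting cells, read 84.4, 90.9 and 90.7 on the EPA arrays, against 82.5, 82.1 and 79.7 on the control arrays (log2 0.12, limma adjusted p = 0.225). Kif26b, a kinesin-like protein of kidney development, lay just inside the filter at 47.2, 40.8 and 46.1 on the EPA arrays, against 40.2, 36.0 and 44.2 on the control arrays. It passed the filter through the EPA arrays, since 1 control array was below the limit, and its log2 fold change was 0.16 (limma adjusted p = 0.240).

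**Figure D4:**
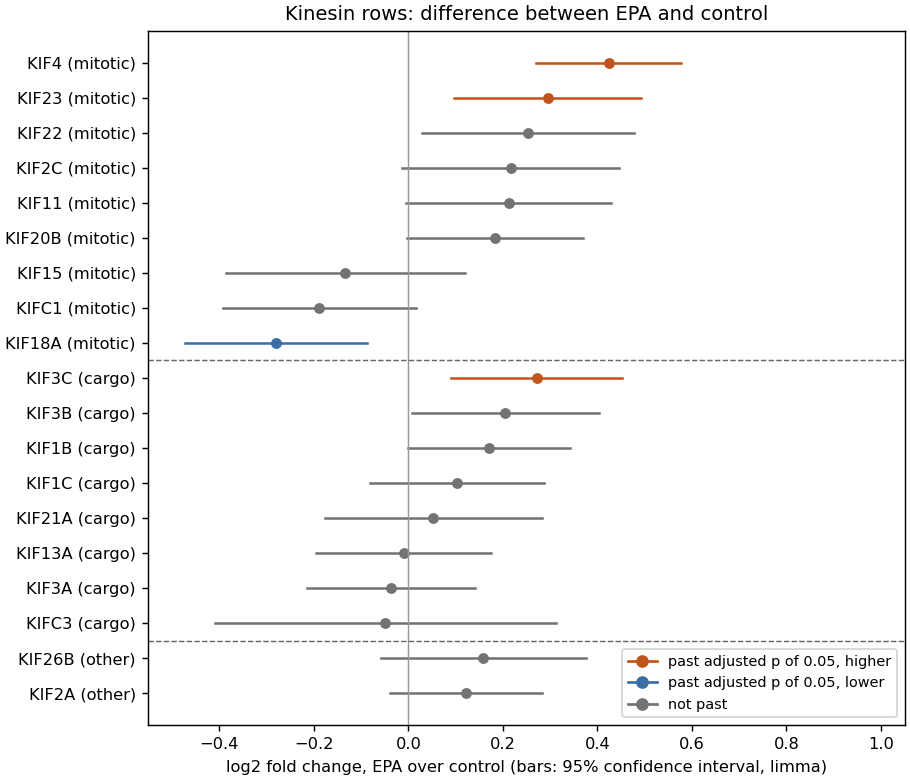
Log2 fold change of the 19 tested kinesin rows, EPA over control, with 95% confidence intervals from limma, ordered within the mitotic, cargo and other classes; colours mark rows called higher or lower. KIF4, KIF23 and KIF3C lie above 0, KIF18A below, and the other intervals include 0 or fail the adjusted threshold.

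The other 19 kinesin rows were not tested, and their intensities ran from 15.4 to 50.8. On all 6 arrays 13 of them were at or below the limit, and 6 exceeded it on some arrays (KIF13B, KIF16B, KIF17, KIF27, KIFC2 and KIFC5C). They were the mitotic Kif2b, Kif14 and Kif20a, the cargo Kif1a, Kif5a, Kif5b, Kif5c, Kif13b, Kif16b, Kif17, Kif21b and Kifc2, and Kif7, Kif9, Kif12, Kif24, Kif26a, Kif27 and the pseudogene row KIFC5C. Kif5b, the widely expressed conventional kinesin, read 29.1, 28.5 and 25.8 on the EPA arrays, against 32.1, 24.4 and 30.8 on the control arrays. Kif20a, a cytokinesis motor, read 26.0, 32.2 and 30.8 on the EPA arrays, against 27.8, 23.3 and 24.0 on the control arrays. Such values carry no level for these genes, and a probe that reads at background does not show that a gene is silent.

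Partners of the motors and related gene lists were set beside them, with each gene represented by its brightest tested row. Of the mitotic partners 17 of 23 were tested, and 3 were called higher, 1 lower and 13 not (23.5% called, median log2 0.14), against 32.7% of all rows. With 1 array left out the counts were 1 to 3 higher and 0 lower, with 1 higher without EPA replicate 3. Ect2, which was not called (log2 0.32, limma adjusted p = 0.0512), passed the filter through the EPA arrays alone. It read 42.4, 40.2 and 50.7 there, against 37.3, 31.2 and 38.1 on the control arrays, all below the limit, and it enters the list median. Anln, the anillin of the cleavage furrow, read 765, 848 and 884 on the EPA arrays, against 534, 624 and 610 on the control arrays, a 1.41-fold rise (limma adjusted p = 0.00276). Prc1, the midzone crosslinker that recruits Kif4, read 1466, 1738 and 1723 on the EPA arrays, against 1283, 1124 and 1341 on the control arrays. It rose 1.31-fold (limma adjusted p = 0.0134), a call lost without EPA replicate 3 (limma adjusted p = 0.0502). The checkpoint gene Mad2l1 was 1.18-fold lower with EPA (limma adjusted p = 0.0324). That call did not hold in 9 of 13 alternatives, among them all 6 that left out 1 array (limma adjusted p of 0.0501 to 0.101). Racgap1, the partner of Kif23 in centralspindlin, and Cenpe, a centromeric kinesin whose symbol has no KIF stem, did not meet the filter; Cenpe was below the limit on all 6 arrays and Racgap1 on 5. Of the chromosomal passenger genes that meet Kif20a and Kif23 at the midzone, none of 4 passed: the log2 fold change was 0.14 for Aurkb, -0.024 for Incenp, -0.0021 for Birc5 and 0.11 for Cdca8.

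Of the cargo partners 19 of 22 were tested, and 3 were called higher, 4 lower and 12 not (36.8% called, median log2 0.11), against 32.7% of all rows (16.2% higher and 16.5% lower). With 1 array left out the counts were 2 to 5 higher and 0 to 3 lower, with 0 lower without control replicate 1. Besides Kifap3, the membrane scaffold Kidins220 rose 1.39-fold (limma adjusted p = 0.00524). Rhot2 and Rhot1, which encode the Miro GTPases that tether kinesin-1 to mitochondria, fell. Rhot2 read 199, 210 and 203 on the EPA arrays, against 267, 240 and 250 on the control arrays (log2 -0.31, limma adjusted p = 0.0122), a call lost without control replicate 1 (limma adjusted p = 0.0504). Rhot1, named after its values were seen, read 698, 683 and 716 on the EPA arrays, against 875, 799 and 862 on the control arrays (log2 -0.27, limma adjusted p = 0.0190). That call was lost without EPA replicate 2 (limma adjusted p = 0.0595), control replicate 1 (0.0686) or control replicate 3 (0.0587). The Trak adaptors that join Miro to kinesin did not follow in one direction, with log2 fold changes of 0.24 for Trak2, called higher (limma adjusted p = 0.0336), and -0.20 for Trak1, which did not pass. The Trak2 call was lost in 7 of 13 alternatives, among them those without EPA replicate 2 (limma adjusted p = 0.103) or 3 (0.0994) and without control replicate 1 (0.0819), 2 (0.0720) or 3 (0.0836). The kinesin light chains Klc1, Klc2 and Klc4 had 0.13, -0.18 and 0.23 and did not pass.

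Dynein and its activator dynactin move towards the minus end, opposite to most kinesins. Of 29 listed genes 23 were tested, and 6 were called higher, 2 lower and 15 not. The share called was 34.8%, against 32.7% of all rows, and the median log2 fold change was 0.029. These counts depend on the row chosen for a gene. Dynll1 was counted as not called on its brightest row (log2 -0.12, limma adjusted p = 0.238), while its other tested row was called lower (log2 -0.39). Actr1a, which forms the dynactin filament, rose 1.37-fold (limma adjusted p = 0.00153), whereas the light chain gene Dynlt3 fell (log2 -0.42, limma adjusted p = 0.00339). Dctn1, the largest dynactin subunit, read 57.7, 58.2 and 50.6 on the EPA arrays, against 39.0, 41.6 and 35.2 on the control arrays. It was called higher (limma adjusted p = 0.00227), but it passed the filter through the EPA arrays, with 1 of 3 control arrays above the limit, and the size is not settled: the log2 fold change was 0.52 as deposited and 1.17 with the background level subtracted. Tubulins, the track of both motors, were called higher in 6 of 12 tested cases and lower in 0, against 16.2% and 16.5% of all rows, with a median log2 fold change of 0.29. The count was 3 to 6 when single arrays were left out, with 3 without control replicate 1. Tubb2b rose 1.52-fold (limma adjusted p = 0.000426), Tubb6 1.33-fold (limma adjusted p = 0.00403) and Tuba1b 1.28-fold (limma adjusted p = 0.0120). Tubulin genes are close in sequence, and probes of one may read another. Of 15 tested proliferation genes 3 were called higher and 2 lower (33.3% called; 2 to 5 higher and 1 to 2 lower with 1 array left out), with Mcm4 at a log2 fold change of 0.42, Cdc20 at 0.32 and Tyms at -0.32, while Mki67, Top2a, Ccnb1 and Cdk1 (0.22, 0.052, 0.035 and 0.0022) did not pass. Without the filter on dim rows, the calls in these 5 lists fell to 1 tubulin and 1 dynein or dynactin gene, both higher, and 0 in the other lists.

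**Figure D5:**
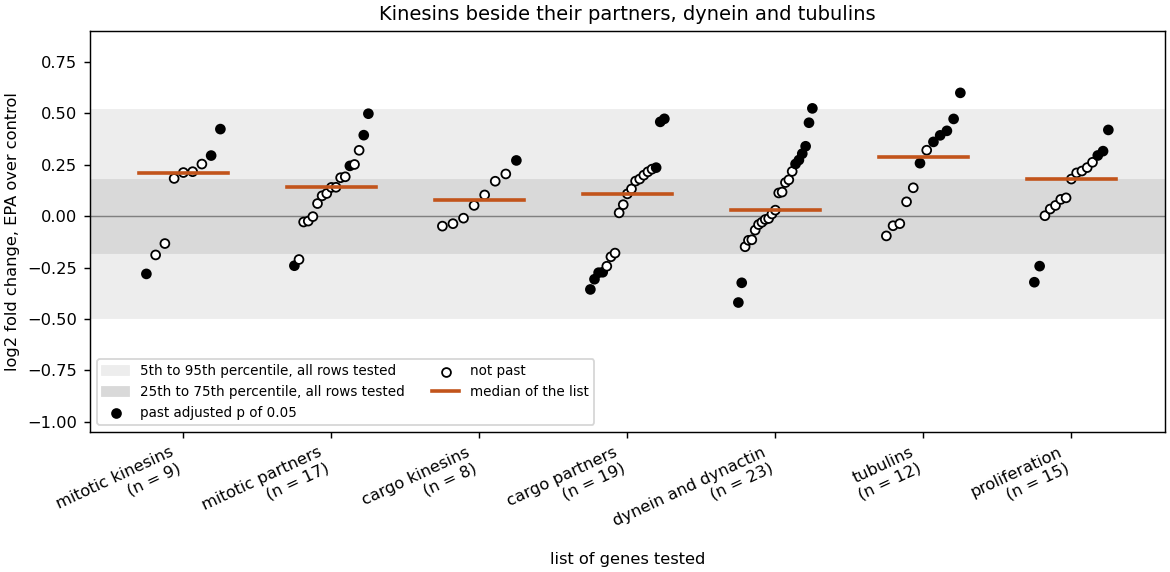
Log2 fold change, EPA over control, of each tested gene of 7 lists, with called genes filled, the list median as a line, and the spread of all tested rows as grey bands (25th to 75th and 5th to 95th percentile). Kinesins are drawn by their member rows and genes of the other lists by their brightest tested row. The member rows of the mitotic and cargo kinesins stay within the outer band of -0.49 to 0.52. KNSL5, the brighter row of Kif23, has a log2 fold change of 1.14 and is not drawn. Tubulins have the highest list median at 0.29.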

How the data were processed

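Per the labels' protocols, biotin-labelled cRNA made from total RNA of 6 MC38 samples was hybridised to Illumina arrays. The deposited intensity values came from GenomeStudio 1.7.0 with quantile normalisation, per the file headers. The sources used here do not state how background, or several probes of a target, were treated. For each target, the authors' deposited table holds a ratio, its log2 value and a raw p-value, with the test not stated. A total of 102 other columns of per-array values match no sample label and were not used. The deposited probe list, an identifier column of no unit, served to count probes per row.

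EPA was set against control on log2 intensities by limma 3.58.1 under R 4.3.3 (lmFit, eBayes, two-sided, Benjamini-Hochberg over 11797 rows). The background limit of 39.5 is the mode of the intensities (28.1) plus the one-sided 0.05 level of the spread below it (SD 6.93). Array number limits the precision. Every tested member is named, with the 3 called partners of smallest p in each list. Further partners, and values of untested kinesin rows, were picked after their values were seen. Members, lists and tests were chosen with earlier results of these data known. Simulated data for this comparison had 11797 rows, 200 of them changed. Limma recovered 80.6% of rows changed by 0.5 and 13.4% of those changed by 0.3 on the log2 scale. With 3859 rows called in the real data, these shares do not carry over to it. Target IDs were named through RefSeq GRCm38.p6, with 16218 matched by current symbol and 5703 by 1 older synonym. Alternatives covered the filter, background, rows per gene, variance model, array weights, replicate block and single arrays left out.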

Additional observations from a re-analysis of the deposited data

How the results depend on the processing

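The Kif4 and KNSL5 calls held under all 13 alternatives. Without the filter on dim rows, 1167 of 30828 rows were called, and of the kinesin rows 1 (Kif4; 1 higher and 0 lower, with 1 mitotic and 0 cargo), with median log2 fold changes of 0.070 for all 38 kinesin rows and -0.0096 for the cargo rows. More rows enter that adjustment, most of them dim. With the background level subtracted the kinesin median was 0.22. Limma with a trended, robust variance called 4 kinesin rows (KIF22, KIF23, KIF3C and KIF4), 0 of them lower. The replicate numbers of the labels are shared between groups. The deviations of same-numbered arrays from their group means had correlations of -0.035, -0.18 and 0.098. Those of differently numbered arrays ran from -0.20 to 0.23. With 3 arrays a group this check cannot show whether the numbers pair samples. With the replicate block 2 kinesin rows were called, 0 of them lower, 1 mitotic; KIF23 (limma adjusted p = 0.0527) and KIF18A (0.0511) were not called. With 1 row per named gene KNSL5 stood for Kif23 and KIF23 was not tested. With single arrays left out, the count of called kinesin rows ran from 1 to 5 (1 to 4 higher, 0 to 1 lower; 1 to 4 mitotic, 0 to 1 cargo) and that of all rows from 2903 to 3558. The median log2 fold change ran from 0.12 to 0.16 for all kinesin rows, 0.17 to 0.23 for mitotic and 0.037 to 0.14 for cargo rows. Over the same alternatives rows near 0 changed sign, with ranges of -0.073 to 0.050 for KIF13A, -0.23 to 0.00011 for KIF15, -0.015 to 0.17 for KIF21A, -0.084 to 0.0017 for KIF3A, -0.18 to 0.11 for KIFC3 and -0.024 to 0.10 for the older-named Kif18b row, and none of these was called. The causes were not tested. In simulated data, where far fewer rows were changed than were called here, most changes of 0.3 on the log2 scale were missed.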

Other observations

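Rows named for kinesin genes through older synonyms fell outside the choice of members. Besides KNSL5, a row under an older RIKEN name of Kif18b, a mitotic motor of microtubule ends, was tested and not called, at 233, 202 and 196 on the EPA arrays, against 195, 210 and 203 on the control arrays (log2 0.052, limma adjusted p = 0.678). Older-named rows of Kif6, Kif11, Kif15 and Kif26b were below background. The authors' deposited table lists 6 of the 38 kinesin rows, with raw p-values up to 0.05. It lists 4423 targets in all, beside 30828 rows of the expression table, so the kinesin share is near that of all rows. The log2 values in the authors' deposited table are 0.42 for KIF4, 0.30 for KIF23, 0.27 for KIF3C, -0.28 for KIF18A, -0.26 for KIFC2 and -0.18 for KIF21B. The KIFC2 row read 32.7, 30.8 and 32.0 on the EPA arrays, against 38.6, 40.0 and 35.9 on the control arrays. KIF21B read 30.4, 29.3 and 28.7 on the EPA arrays, against 33.0, 33.0 and 33.9 on the control arrays. For both the groups did not overlap, but neither row passed the background filter, so they were not tested here.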
